A study of Sus scrofa with 30 samples.

Results

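The 5 skeletal muscle genes MYLPF, TNNT3, TNNC2, MYH2 and KLHL41 were followed across epithelial and mesenchymal pieces of pig teats. They were chosen by their values on these arrays: among the named genes measured here, these 5 had the largest mesenchymal-minus-epithelial differences in normal teats. Each is represented by 1 probe set whose only platform symbol is that gene, so the members are 5 of the 10069 probe sets with a single symbol and of the 23999 probe sets analysed on the Affymetrix Porcine Genome Array. MYH2 lies next to the related genes MYH1 and MYH4 in the RefSeq gene table. Those genes have no single-symbol probe set here, and whether the MYH2 probe set also detects their transcripts was not tested.

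The study asked which genes differ between inverted teats, a defect in which the teat is turned inward and cannot be suckled, and normal teats. It used 30 arrays, 1 per tissue piece, from 15 teats of 10 peripubertal pigs slaughtered at a mean weight of 110 kg. For each tissue there were 5 normal teats of 5 non-affected animals (950, 957, 1040, 1058 and 1109), 5 normal teats of 5 affected animals (963, 964, 1037, 1059 and 1103) and 5 inverted teats of those same affected animals. Animals 1103 and 1109 were Pietrain x (Large White x German Landrace). Animals 957 and 963 were German Landrace, and the breed of the remaining 6 was Large White x German Landrace. No animal carried a treatment or a transgene. Teats were called inverted or normal by inspection and palpation, and the labels do not say how the tissues were parted or where on the animal each teat lay. An array therefore stands for 1 piece of 1 teat, and pieces of 1 animal are not independent of each other.

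In a skeletal muscle fibre, myosin heads pull on actin filaments, and calcium released into the fibre starts the pull by binding the troponin complex on the thin filament. Fast-twitch fibres build this machinery from their own isoforms. MYH2 encodes the myosin heavy chain of fast oxidative (type IIA) fibres, and MYLPF a regulatory light chain of fast myosin. TNNT3 is the fast troponin T that anchors the complex to tropomyosin, and TNNC2 the fast troponin C that binds calcium. KLHL41 is not such an isoform but a kelch protein that stabilises thin filament proteins in the sarcomere. Its level is not read here as a mark of fast fibres. Skeletal muscle fibres under the skin and around the mammary region are a possible component of a teat sample, whereas the teat's own muscle is smooth muscle.

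Values are on a log2 scale as deposited, with 0 as the lowest value, and a value under its array's 30th percentile (4.49 to 4.83) is treated as near background. Array medians lay between 5.71 and 6.04. The luminal keratin mean (KRT8, KRT18 and KRT19, which line the ducts) was 9.27 to 10.66 on 14 of the 15 epithelial arrays and 6.75 on that of the inverted teat of animal 1103. On mesenchymal arrays it ran from 2.38 to 11.14, so several mesenchymal pieces carried as much luminal keratin RNA as the epithelial ones. The adipocyte mean (8 genes) was 9.33 to 11.64 on mesenchymal and 6.79 to 10.08 on epithelial arrays. Levels of different probe sets cannot be set against each other, so each gene is compared with itself across arrays. In these bulk samples, fewer muscle cells and less RNA per cell cannot be told apart.

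Most mesenchymal pieces held all 5 genes above background, and the epithelial pieces were divided. On 13 of the 15 mesenchymal arrays none of the 5 was under the 30th percentile, and on the other two, the normal teat of non-affected animal 1040 and the inverted teat of affected animal 963, all 5 were. On epithelial arrays all 5 were under it on 7 of 15, none was on 6, and on 2 arrays some were. The 13 mesenchymal arrays held MYLPF at or above the 98.95th percentile of their array, TNNC2 at or above the 98.78th and TNNT3 at or above the 97.25th. KLHL41 reached down to the 67.38th percentile and MYH2 to the 33.37th on those arrays. Several results that rest on the pieces of 1040 and 963 are therefore also given without them. Others, such as the mean tissue differences in normal teats, are given with all arrays only.

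**Figure D1:**
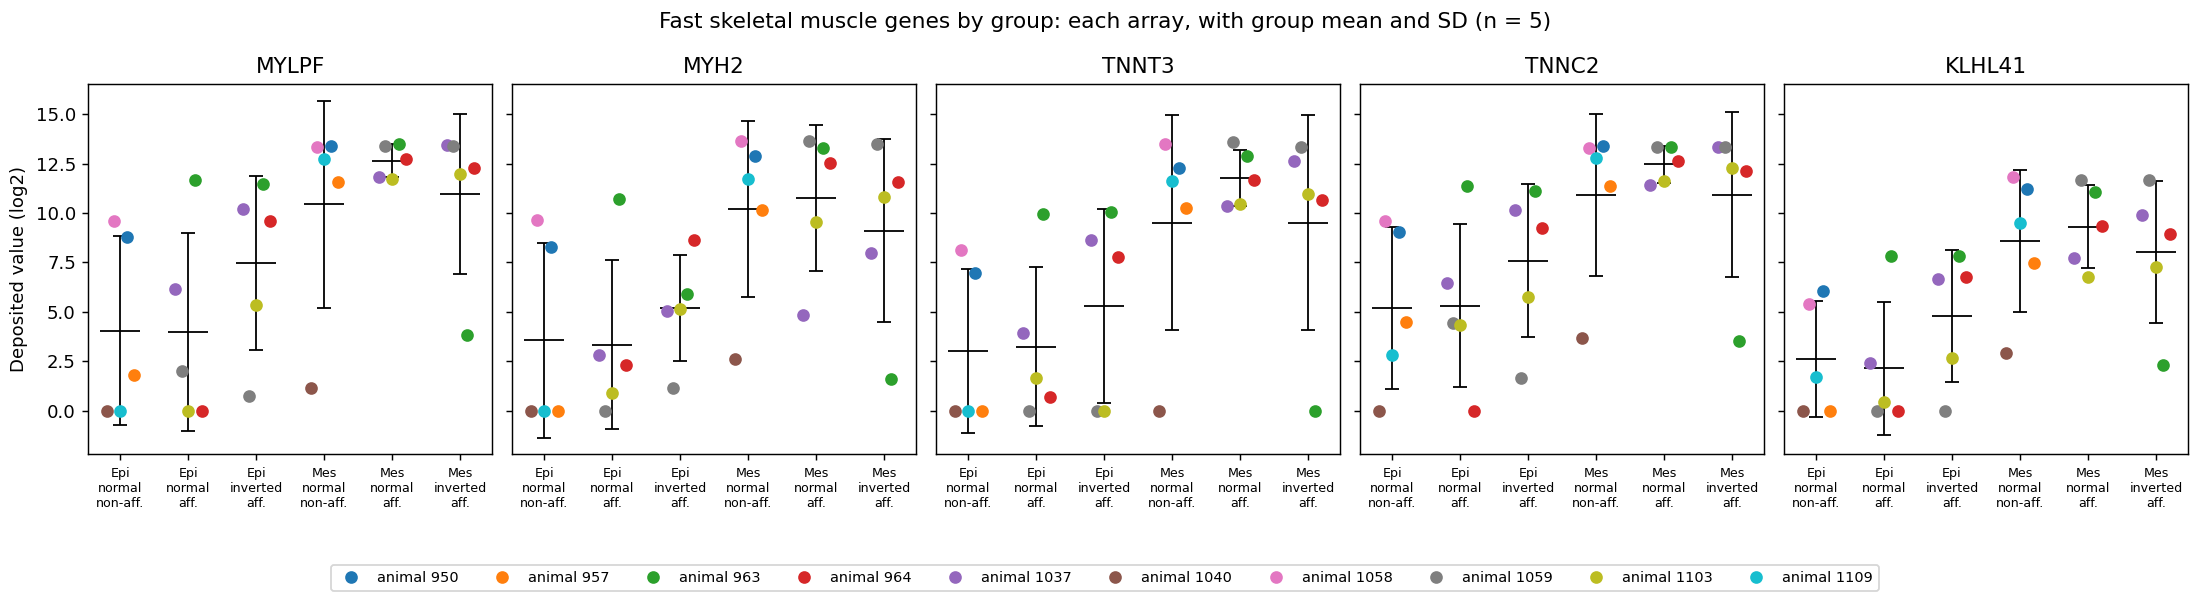
Deposited log2 value (y axis) of the 5 genes in the 6 groups (x axis), 1 point per array coloured by animal, with the group mean and SD as bars (n = 5). Over all epithelial arrays each gene starts at 0, and its highest value lies between 7.85 (KLHL41) and 11.68 (MYLPF). In the mesenchymal groups the low points are animal 1040 (normal teat) and animal 963 (inverted teat), with MYH2 also low in animal 1037.

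MYLPF, the regulatory light chain, was high in mesenchyme and varied widely in epithelium. In epithelium of normal teats of non-affected animals it measured 8.79 in 950, 1.84 in 957, 0 in 1040, 9.62 in 1058 and 0 in 1109. In epithelium of affected animals it measured 11.68 in the normal and 11.47 in the inverted teat of 963, 0 and 9.61 in 964, 6.17 and 10.22 in 1037, 2.02 and 0.74 in 1059, and 0 and 5.33 in 1103. The 3 epithelial groups overlap almost fully, with high and low animals in each. In mesenchyme it measured 13.40 in 950, 11.57 in 957, 1.15 in 1040, 13.34 in 1058 and 12.73 in 1109. In mesenchyme of affected animals, the normal and the inverted teat measured 13.48 and 3.83 in 963, 12.74 and 12.27 in 964, 11.83 and 13.44 in 1037, 13.38 and 13.37 in 1059, and 11.72 and 11.98 in 1103. Outside 1040 and the inverted teat of 963, the mesenchymal values lay within 11.57 to 13.48. That is above 14 of the 15 epithelial values, all but the 11.68 of animal 963.

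MYH2, the heavy chain, ran from 1.63 to 13.64 in mesenchyme, and from 4.86 to 13.64 without the inverted teat of 963 and the normal teat of 1040. In epithelium it measured 8.27 in 950, 9.64 in 1058 and 0 in each of 957, 1040 and 1109. In epithelium of affected animals, normal and inverted teats measured 10.70 and 5.88 in 963, 2.34 and 8.65 in 964, 2.81 and 5.07 in 1037, 0 and 1.15 in 1059, and 0.89 and 5.14 in 1103. The inverted teats lie inside the range of the normal ones. In mesenchyme it measured 12.88 in 950, 10.13 in 957, 2.63 in 1040, 13.64 in 1058 and 11.69 in 1109. For affected animals the normal and inverted teats measured 13.31 and 1.63 in 963, 12.50 and 11.58 in 964, 4.86 and 7.99 in 1037, 13.62 and 13.48 in 1059, and 9.54 and 10.83 in 1103. Both teats of animal 1037 were thus low for MYH2 but not for MYLPF.

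TNNT3, the fast troponin T, was the member most often listed at 0. In epithelium it measured 6.98 in 950, 8.14 in 1058 and 0 in 957, 1040 and 1109. Normal and inverted teats of affected animals measured 9.93 and 10.05 in 963, 0.70 and 7.78 in 964, 3.96 and 8.62 in 1037, 0 and 0 in 1059, and 1.66 and 0 in 1103. It was listed at 0 on 6 of the 15 epithelial arrays. In mesenchyme it measured 12.26 in 950, 10.24 in 957, 0 in 1040, 13.48 in 1058 and 11.62 in 1109. The affected animals' normal and inverted teats measured 12.87 and 0 in 963, 11.65 and 10.65 in 964, 10.38 and 12.65 in 1037, 13.56 and 13.31 in 1059, and 10.47 and 10.98 in 1103. Its 13 mesenchymal values above 0 all exceeded its highest epithelial value of 10.05.

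TNNC2, the fast troponin C, followed MYLPF closely. In epithelium it measured 9.02 in 950, 4.48 in 957, 0 in 1040, 9.59 in 1058 and 2.82 in 1109. In affected animals, normal and inverted teats measured 11.37 and 11.11 in 963, 0 and 9.26 in 964, 6.45 and 10.16 in 1037, 4.47 and 1.68 in 1059, and 4.32 and 5.75 in 1103. The highest pair again came from animal 963. In mesenchyme it measured 13.39 in 950, 11.38 in 957, 3.71 in 1040, 13.29 in 1058 and 12.80 in 1109. Among affected animals the normal and inverted teats measured 13.36 and 3.55 in 963, 12.64 and 12.12 in 964, 11.40 and 13.33 in 1037, 13.34 and 13.35 in 1059, and 11.60 and 12.26 in 1103. All but the pieces of 1040 and the inverted teat of 963 lay between 11.38 and 13.39.

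KLHL41, the kelch protein, had its lowest mesenchymal values in the pieces that were lowest for MYLPF and its highest in animal 1058. In epithelium it measured 6.06 in 950, 5.43 in 1058, 1.71 in 1109 and 0 in 957 and 1040. In affected animals, normal and inverted teats measured 7.84 and 7.85 in 963, 0 and 6.79 in 964, 2.45 and 6.65 in 1037, 0 and 0 in 1059, and 0.45 and 2.69 in 1103. The groups overlap. In mesenchyme it measured 11.23 in 950, 7.45 in 957, 2.92 in 1040, 11.84 in 1058 and 9.51 in 1109. In affected animals, normal and inverted teats measured 11.05 and 2.31 in 963, 9.36 and 8.95 in 964, 7.72 and 9.90 in 1037, 11.64 and 11.67 in 1059, and 6.75 and 7.29 in 1103. The mesenchymal values of 957, both teats of 1103 and the normal teat of 1037 lay within the epithelial range, which reached 7.85.

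In normal teats, the contrast that chose the members, the mesenchymal piece had the higher value in 10 of 10 animals for MYLPF, TNNC2, MYH2 and KLHL41 and in 9 of 10 for TNNT3, which was at 0 in both pieces of animal 1040. These values are a description and no test was made of them. The mean differences over the 10 animals were 7.52 for MYLPF, 7.52 for TNNT3, 7.02 for MYH2, 6.55 for KLHL41 and 6.44 for TNNC2 on the log2 scale. The genes just outside were MYL1, a fast myosin light chain, at 6.19, and RYR1, the calcium release channel, at 6.16. They were followed by TTN, the spring protein titin, at 6.01. The differences of single animals were uneven. They were smallest for MYLPF in animals 1040 (1.15) and 963 (1.80) and largest in 964 (12.74) and 1109 (12.73). In 1040 both pieces were near background, and in 963 both were high.

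**Figure D2:**
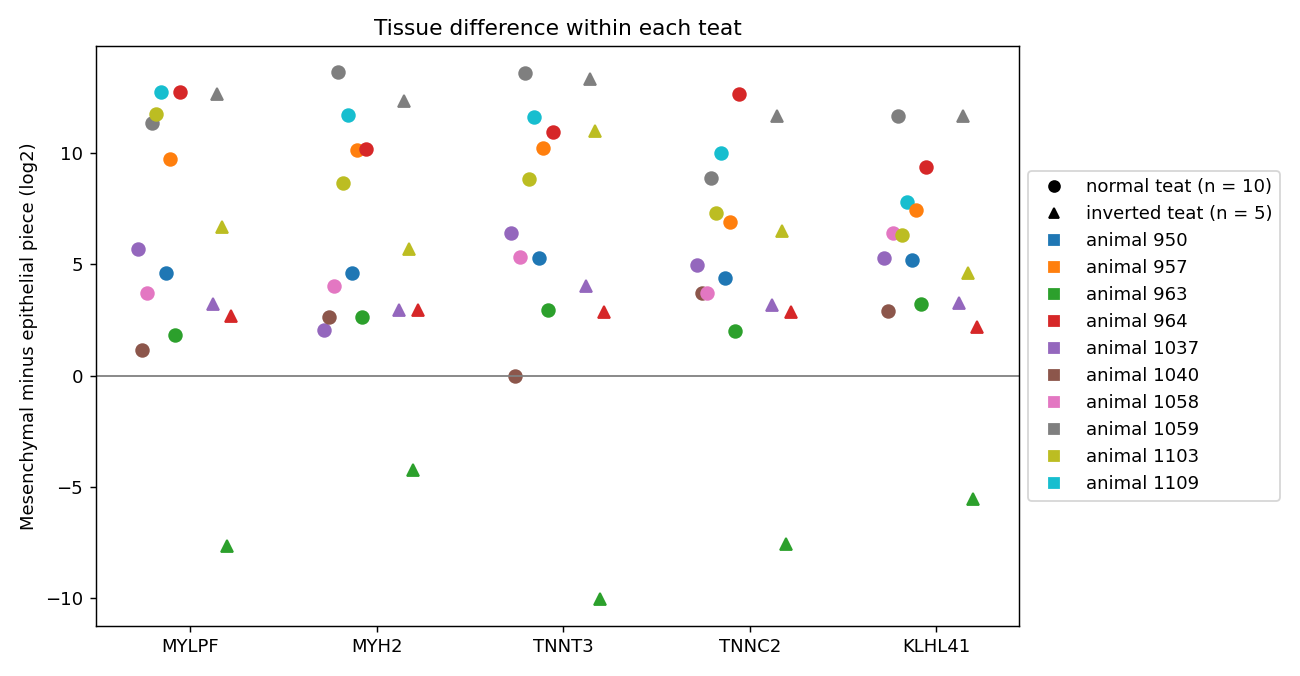
Mesenchymal minus epithelial log2 value (y axis) within each teat for the 5 genes (x axis), coloured by animal, with circles for 10 normal teats and triangles for 5 inverted teats. Of the 5 inverted teats, 4 lie above 0, as nearly all normal teats do, and animal 963 lies between -10.05 and -4.25.

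Inverted teats gave the tissue difference in arrays that did not choose the members. The mesenchymal piece was higher in 4 of 5 inverted teats for all 5 genes, and the difference did not pass the threshold for any of them. MYLPF averaged 10.98 ± 4.05 in mesenchyme and 7.48 ± 4.42 in epithelium (SD, n = 5 each). Its difference of 3.50 ± 2.27 (SE, 95% interval -1.48 to 8.48) had an adjusted p of 0.318 in limma. The pairs differed by -7.64 in animal 963, 2.65 in 964, 3.21 in 1037, 12.63 in 1059 and 6.65 in 1103.

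MYH2 averaged 9.10 ± 4.62 against 5.18 ± 2.68, a difference of 3.92 ± 2.02 (SE, 95% interval -0.52 to 8.36, adjusted p = 0.213 in limma). TNNT3 averaged 9.52 ± 5.44 against 5.29 ± 4.90 (difference 4.23 ± 2.77 SE, adjusted p = 0.323), and TNNC2 10.92 ± 4.16 against 7.59 ± 3.88 (3.33 ± 2.15 SE, adjusted p = 0.317). KLHL41 averaged 8.03 ± 3.57 against 4.79 ± 3.32 (3.23 ± 1.84 SE, adjusted p = 0.258). By size of difference, these 5 probe sets ranked between 2 and 14 of 17123. None of the 5 was called, against 12.3% of all probe sets tested (11.5% called higher in mesenchyme).

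The result in inverted teats turned on animal 963. Its epithelial piece held the members at high values and its mesenchymal piece near background, so the 5 differences were -7.64 for MYLPF, -4.25 for MYH2, -10.05 for TNNT3, -7.56 for TNNC2 and -5.54 for KLHL41. Without this animal the differences were 6.29 for MYLPF (adjusted p = 0.0606 in limma), 5.97 for MYH2 (0.0464), 7.80 for TNNT3 (0.0442), 6.05 for TNNC2 (0.0477) and 5.42 for KLHL41 (0.0571). Then 3 of 5 were called, against 8.46% of 16585 probe sets. Animal 1059 moved the values the other way, and without it the differences were 1.22 for MYLPF, 1.82 for MYH2, 1.96 for TNNT3, 1.24 for TNNC2 and 1.12 for KLHL41. No member was called without 1059, 964, 1037 or 1103. Over all alternatives the adjusted p ran from 0.0442 to 0.712 for TNNT3, from 0.0464 to 0.589 for MYH2 and from 0.0477 to 0.740 for TNNC2. Adipocyte markers of this teat did not turn with the muscle genes. Their mean was 9.47 in the epithelial and 10.93 in the mesenchymal piece, a difference of 1.45 against 1.81 in the animal's normal teat. The luminal keratin mean differed by -0.11 in the inverted and by -0.06 in the normal teat. It does not tell the pieces of this animal apart, so it cannot show a turn.

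MYL1 and the means of other muscle gene lists turned in the same way in that teat. MYL1 measured 11.56 in epithelium and 3.37 in mesenchyme of the inverted teat of animal 963, against 11.72 and 13.37 in its normal teat. The mean of the Z-disc, titin and nebulin genes differed between mesenchyme and epithelium by -3.29 in the inverted and 2.28 in the normal teat. That of the calcium handling genes differed by -4.01 and 1.97, and that of the slow and cardiac isoforms by -1.67 and 2.03. The means of these lists were thus reversed between the pieces of this teat. Not every gene on them turned so far. CRYAB of the Z-disc list was at most 9.845 on any epithelial array and at least 9.841 on any mesenchymal one. Of the slow genes, TNNI1, TNNT1 and MYL2 were under the 30th percentile on 15, 13 and 12 of the 15 epithelial arrays. These means therefore do not show which fibre type was reversed. The part of sampling, labelling or the teat itself in the reversal was not tested.

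The direct question of the study is whether inverted teats differ from normal teats of the same animals. In epithelium the members had higher means in inverted teats, and in mesenchyme lower means, but neither passed the threshold. The normal-teat arrays also entered the choice of the members, which favoured genes low in normal epithelium and high in normal mesenchyme. The signs of the differences below are not independent of that choice. MYLPF differed by 3.50 ± 2.63 (SE, 95% interval -2.09 to 9.09) in epithelium and by -1.66 ± 2.15 (-6.24 to 2.93) in mesenchyme, each with an adjusted p of 1 in limma. These fits compared group means and did not use the pairing of teats within animals. The paired MYLPF differences had an SD of 4.41 in epithelium and 4.54 in mesenchyme (n = 5).

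**Figure D3:**
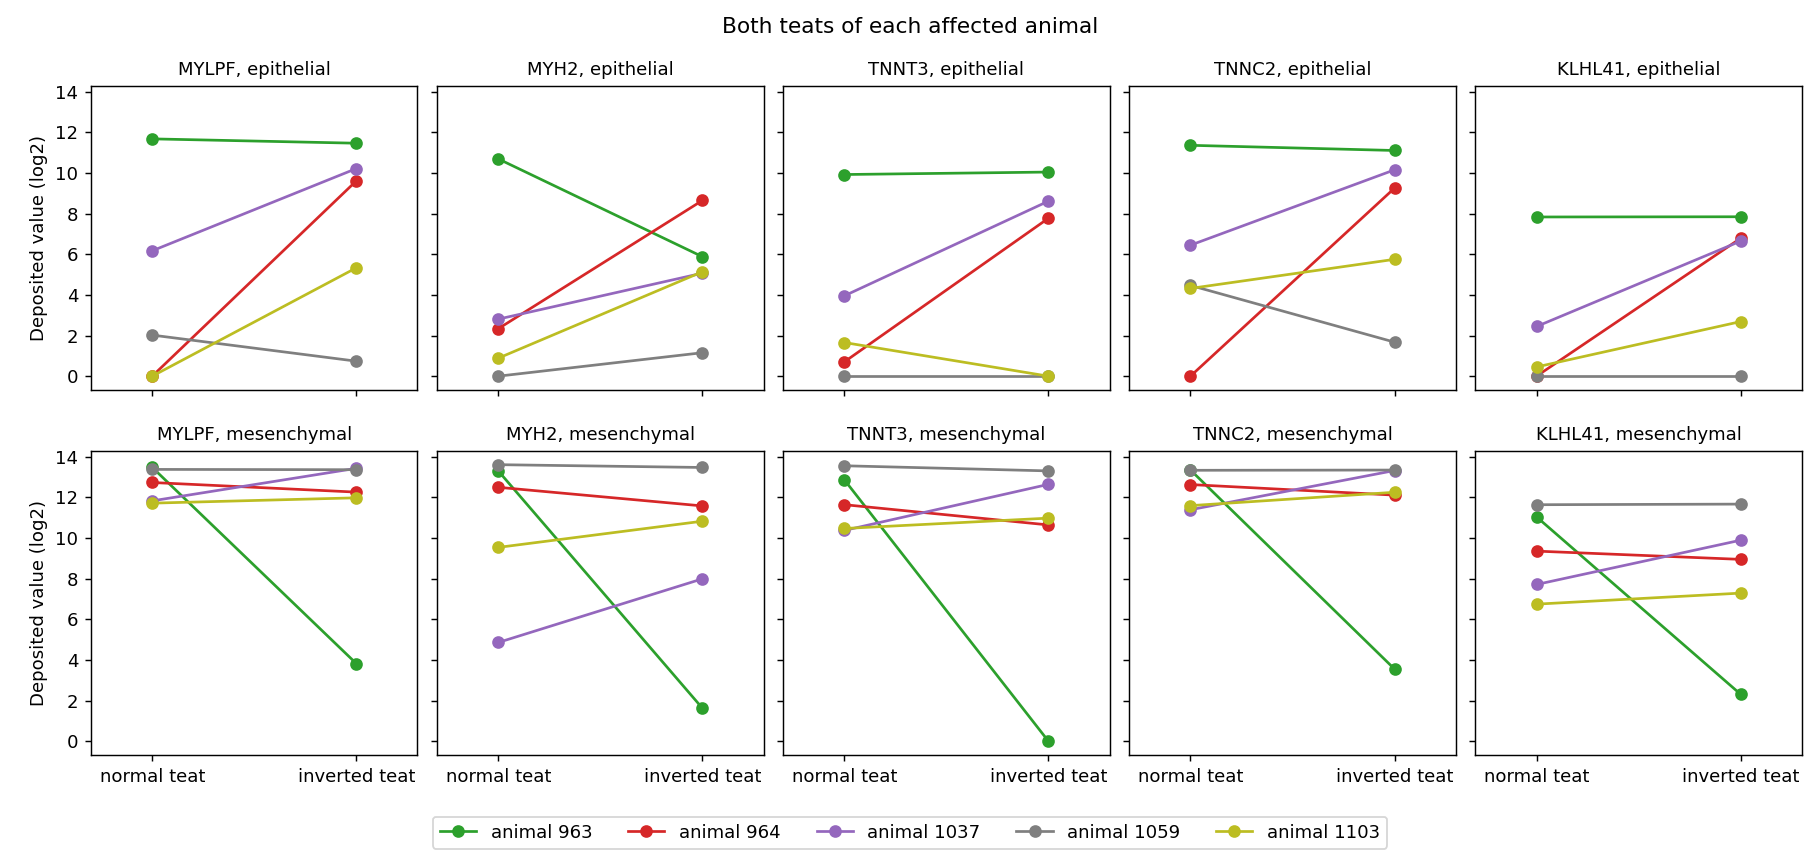
Log2 value (y axis) of the 5 genes in the normal and the inverted teat (x axis) of each affected animal, joined by a line per animal, with epithelium above and mesenchyme below. In epithelium the lines of 964 and 1037 climb for all 5 genes, and in mesenchyme the line of 963 drops steeply while those of 964 and 1059 stay nearly level.

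In epithelium, the inverted teats of animals 964 and 1037 were higher for all 5 members, by 6.31 to 9.61 in 964 and by 2.26 to 4.66 in 1037. Animal 1103 was higher for 4 of 5 (-1.66 for TNNT3 to 5.33 for MYLPF), 963 for 2 of 5 (-4.81 for MYH2 to 0.12 for TNNT3) and 1059 for 1 of 5 (-2.79 for TNNC2 to 1.15 for MYH2). The fitted differences were 2.04 ± 2.43 for TNNT3, 2.27 ± 2.24 for TNNC2, 1.83 ± 2.26 for MYH2 and 2.65 ± 1.78 for KLHL41 (SE). Animal 964 weighed most, and without it the differences were 1.97 for MYLPF, 0.78 for TNNT3, 0.52 for TNNC2, 0.71 for MYH2 and 1.61 for KLHL41. None of the 5 was called, nor was any of the 17671 probe sets tested (0%), with 303 at an unadjusted p under 0.05 in limma. Beside these values, the luminal keratin mean differed between the inverted and the normal epithelial piece by -3.50 in animal 1103, -0.72 in 1059, -0.16 in 963, 0.20 in 964 and 0.81 in 1037. Its part in the muscle differences was not tested.

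In mesenchyme, the same comparison rested on animal 963. Its inverted teat differed from its normal teat by -9.66 for MYLPF, -11.68 for MYH2, -12.87 for TNNT3, -9.80 for TNNC2 and -8.73 for KLHL41. Animal 1037 went the other way, with all 5 members higher in the inverted teat by 1.60 to 3.13. In the remaining animals the pairs lay closer: 1103 was higher by 0.26 to 1.29, 1059 differed by -0.25 to 0.03, and 964 by -0.997 to -0.406. The fitted differences of -2.27 ± 2.52 for TNNT3, -1.54 ± 1.91 for TNNC2, -1.66 ± 2.38 for MYH2 and -1.28 ± 1.77 for KLHL41 (SE) turned positive without that animal. They were then 0.38, 0.52, 0.84 and 0.59, and 0.34 for MYLPF. None of the 5 and none of 17850 probe sets (0%) was called, with 78 at an unadjusted p under 0.05 in limma. The luminal keratin mean of the mesenchymal piece was higher in the inverted than in the normal teat by 3.87 in 1059 and 6.38 in 1103, whereas MYLPF differed by -0.01 and 0.26 there.

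An interaction term, fitted on the 30 arrays, tested whether the teat difference was the same in both tissues. The mesenchymal difference minus the epithelial difference was -5.16 ± 3.62 for MYLPF, -4.31 ± 3.73 for TNNT3, -3.81 ± 3.13 for TNNC2, -3.50 ± 3.49 for MYH2 and -3.92 ± 2.67 for KLHL41 (SE). The 95% interval for MYLPF ran from -12.57 to 2.26. With each animal left out in turn, its value ran from -6.76 to -3.92. The normal-teat arrays in this term also entered the choice of the members, so the signs are not independent of that choice. The fit had no term for the animal. No member passed (adjusted p = 1 for each in limma), and 0% of 18795 probe sets did, with 172 at an unadjusted p under 0.05.

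Affection status was compared in normal teats, and the inverted teats were also set against normal teats of non-affected animals. These comparisons share arrays with the ones above and with each other, so their values are given side by side and not counted as separate evidence. In epithelium of normal teats the affected animals had MYLPF at 3.98 ± 4.99 and the non-affected at 4.05 ± 4.77 (SD, n = 5). The differences by status ranged from -0.49 for KLHL41 to 0.23 for TNNT3, with 95% intervals that span several log2 units (-5.67 to 5.52 for MYLPF). In mesenchyme the affected animals had MYLPF at 12.63 ± 0.83 and the non-affected at 10.44 ± 5.24, and the 5 differences ran from 0.57 for MYH2 to 2.27 for TNNT3. Non-affected animal 1040 lay behind that difference, and without it the values were -0.13 for MYLPF, -0.11 for TNNT3, -0.25 for TNNC2, -1.32 for MYH2 and -0.71 for KLHL41.

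No member was called in either tissue by status. The same held for all probe sets (0% of 17671 in epithelium, 419 at an unadjusted p under 0.05 in limma, and 0% of 17850 in mesenchyme, 201 unadjusted). Against non-affected animals, inverted epithelium had MYLPF higher by 3.43 ± 2.63, TNNT3 by 2.27 ± 2.43, TNNC2 by 2.41 ± 2.24, MYH2 by 1.60 ± 2.26 and KLHL41 by 2.16 ± 1.78 (SE). Inverted mesenchyme differed by 0.54 ± 2.15 for MYLPF, -0.0015 ± 2.52 for TNNT3, 0.0090 ± 1.91 for TNNC2, -1.09 ± 2.38 for MYH2 and -0.56 ± 1.77 for KLHL41 (SE). Each of these means holds 1 piece near background, that of 963 in the inverted group and that of 1040 in the other. No member and 0% of probe sets were called in either tissue, with 484 and 219 at an unadjusted p under 0.05 in limma.

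The members had like patterns over the pieces, and MYH2 correlated least with the others in both tissues. Over the 15 mesenchymal arrays the Pearson r between pairs of the other 4 members was 0.894 to 0.995, and with MYH2 it was 0.84 to 0.89. Without the 2 pieces near background, the ranges were 0.91 to 0.98 and 0.59 to 0.69. Over the 15 epithelial arrays they were 0.91 to 0.96 and 0.82 to 0.89. These correlations are descriptions over arrays that share animals and 2 clusters of level, and no p is given. In animal 1037 the inverted mesenchyme ranked 2 of 15 for MYLPF and 12 for MYH2, and the normal one 11 and 13. In the inverted epithelium of animal 963, MYLPF ranked 2 of 15 and MYH2 ranked 5.

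**Figure D4:**
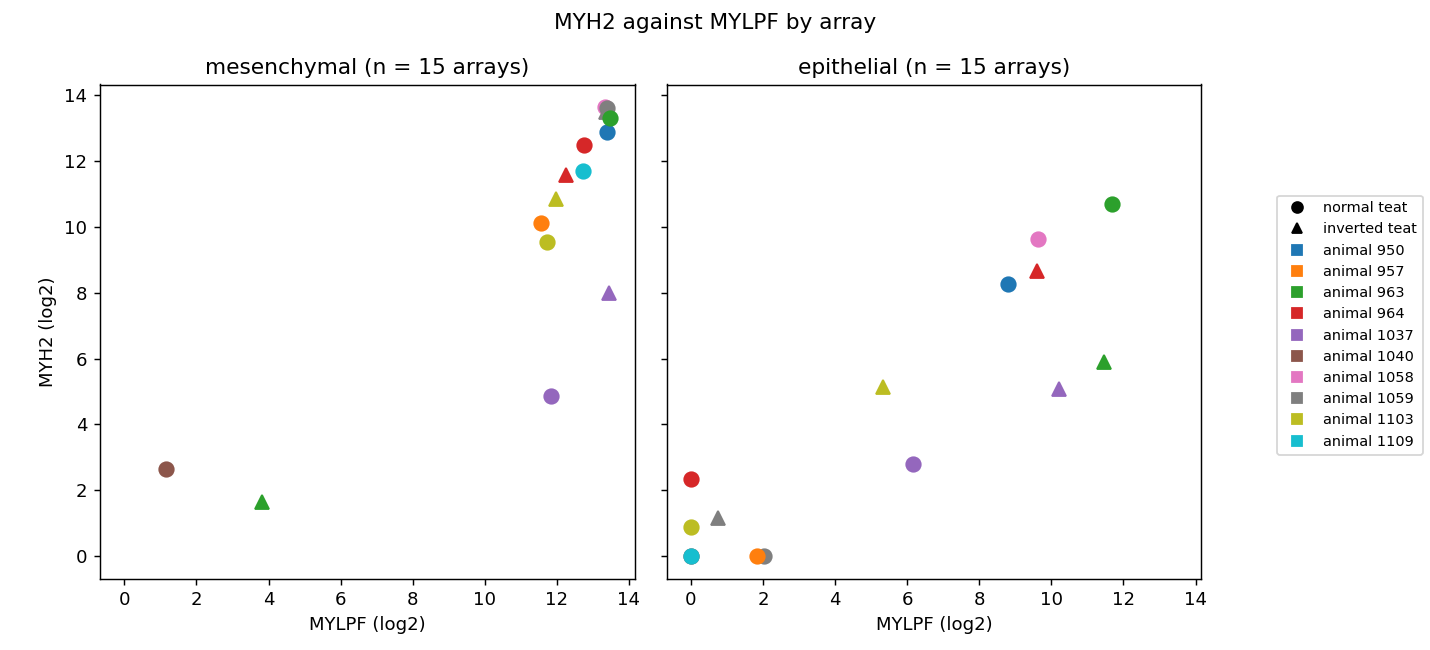
MYH2 (y axis) against MYLPF (x axis), both deposited log2 values, with 1 point per array coloured by animal, circles for normal and triangles for inverted teats. Both mesenchymal points of animal 1037 lie below the others of like MYLPF level, as do its inverted epithelial piece and that of animal 963.

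Slow fibre isoforms were not simply a scaled copy of the fast ones. The slow counterparts measured were MYH7 (slow myosin heavy chain), MYL2 and MYL3 (slow light chains), and the slow troponins TNNT1, TNNC1 and TNNI1. On mesenchymal arrays the normal teat of animal 1059 held the highest value of all 6, among them MYH7 at 10.36, MYL2 at 10.80 and TNNT1 at 10.48. In the inverted teat of the same animal these 3 measured 7.92, 7.71 and 7.47, while MYLPF stood at 13.38 and 13.37. The value of the fast light chain was thus level between those teats and that of the slow one was not. Both MYLPF values lay at the 99.92th percentile of their array, and whether the signal is limited at that height was not tested.

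The inverted teats of animals 1037 and 1103 differed widely in the slow genes. The inverted teat of 1037, low in MYH2, ranked 2 or 3 of 15 mesenchymal arrays for all 6 slow genes, with MYH7 at 8.66, MYL2 at 9.05 and TNNT1 at 8.76. The inverted teat of 1103 had MYLPF at 11.98 but MYL2 at 1.90, TNNT1 at 2.42, TNNI1 at 1.66 and TNNC1 at 2.59, ranks 13 to 15. The slow genes MYH7 and MYL3 were not under the 30th percentile on that array. Animal 1058, with the highest MYH2 (13.64) and KLHL41 (11.84), had MYH7 at 7.81. In the pieces of 1040 and of the inverted teat of 963, MYH7 was 4.003 and 3.478 and TNNT1 0.75 and 0.56, so slow isoforms were low there too. In epithelium MYH7 stayed between 4.31 and 6.07 on all 15 arrays, and TNNI1 was under the 30th percentile on all of them. TNNC1 was under it on none, with values from 4.89 to 9.61, the highest in the inverted teat of 1103.

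**Figure D5:**
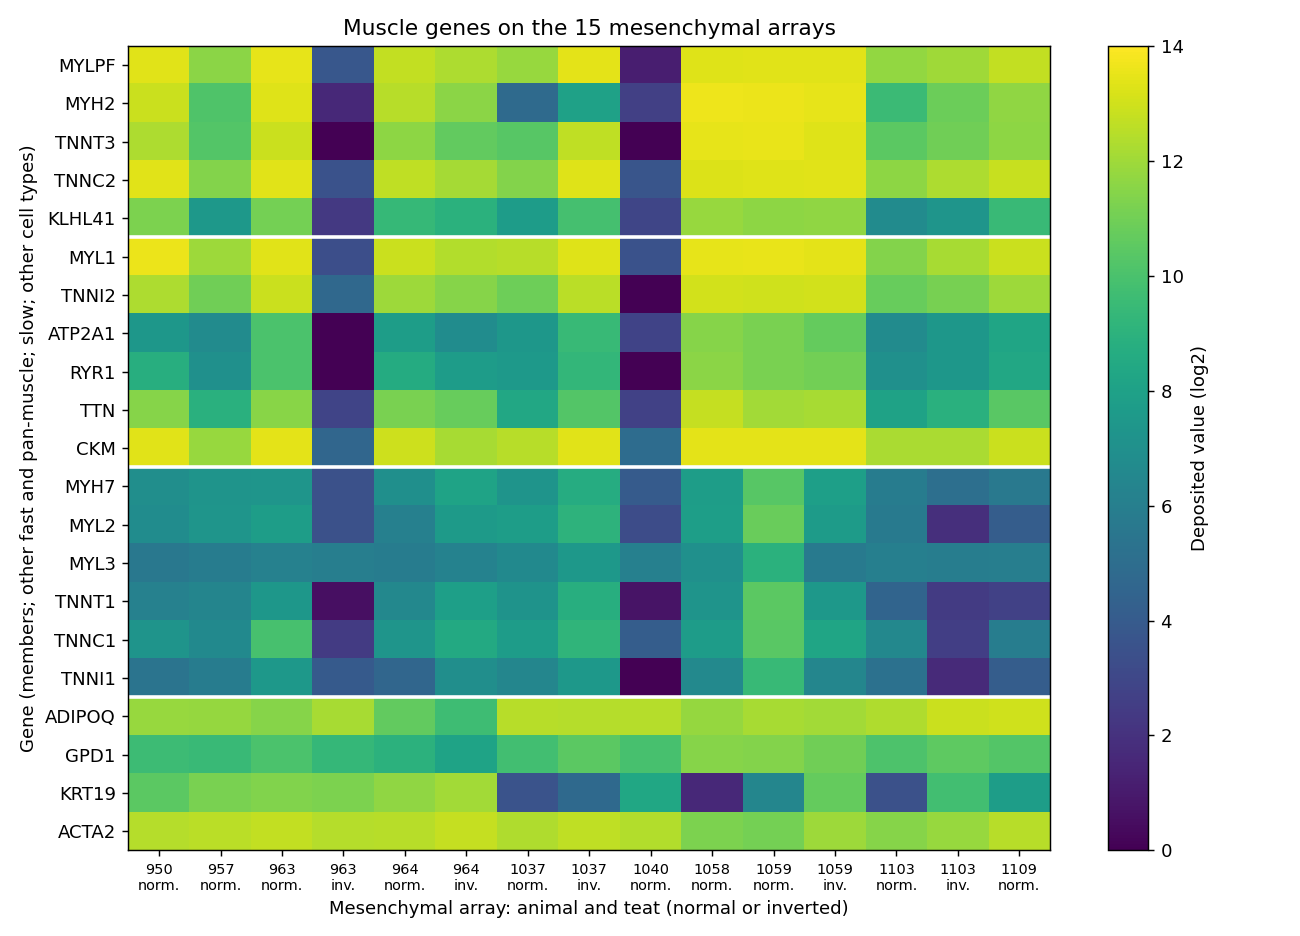
Deposited log2 value (colour, 0 to 14) of the 5 members, other fast and pan-muscle genes, slow isoforms and markers of fat, luminal epithelium and smooth muscle (rows) on the 15 mesenchymal arrays (columns, animal and teat). The dark columns for muscle genes are 963 inverted and 1040 normal, where ADIPOQ is 12.19 and 12.45, and the slow rows are brightest at 1059 normal.

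Genes whose pattern was most like the members' mean were other genes of muscle. Over the 15 mesenchymal arrays, of 6760 symbols, the 6 highest r belonged to PGAM2 and ENO3 (glycolytic enzymes of muscle, r = 0.995 and 0.991), SLN (sarcolipin, a regulator of the calcium pump, 0.989), TTN (0.984), RYR1 (0.979) and MYL1 (0.978). Without the 2 arrays farthest from the median, PGAM2 kept an r of 0.959 and MYL1 one of 0.847. Over the 15 epithelial arrays the highest were ENO3 (0.975), CKM (muscle creatine kinase, 0.960), MYL1 (0.959), TTN (0.956), TNNI2 (fast troponin I, 0.941) and SLN (0.938). An r above 0.9 was reached by 23 symbols in mesenchyme and 9 in epithelium, and without 2 arrays in each by 31 and 6. The arrays share animals and the values of low arrays lie at 0, so these are descriptions of likeness over 15 arrays.

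Other muscle genes, from lists of muscle and other cell types, were measured in inverted teats beside the members. Of 52 tested genes on 7 skeletal muscle lists, members left out, 43 had the higher value in mesenchyme and 5 were called higher (limma). Of all 17123 probe sets tested, 10386 had the higher value in mesenchyme and 11.5% were called higher. The share of muscle list genes called was thus not above that of all probe sets. The called genes were FABP3, a fatty acid carrier (2.14 ± 0.34 SE, adjusted p = 0.0162), COX7A1, a respiratory chain subunit (1.1003 ± 0.26, 0.0234), LDHA, lactate dehydrogenase (1.74 ± 0.46, 0.0342), CA3, a carbonic anhydrase (1.93 ± 0.56, 0.0457), and CRYAB, a small heat shock protein (1.33 ± 0.38, 0.0460). These 5 are also expressed outside muscle fibres, and CA3 and FABP3 are known from fat tissue. Sarcomere genes with larger differences were not called, and their SE were larger: MYOM2 of the M-band differed by 3.54 ± 1.45 (adjusted p = 0.128) and TTN by 2.99 ± 1.82 (0.287).

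By list, no gene of the fast myosin and thin filament lists was called. MYL1 differed by 2.46 ± 1.99, TNNI2 by 1.66 ± 1.69 and LMOD3, which caps and nucleates thin filaments, by 2.19 ± 0.99 (SE), while the tropomyosin TPM1 differed by -0.33 ± 0.26. The slow and cardiac isoforms had a median of 0.95 with 0 of 10 called, MYBPC1 (slow myosin-binding protein C) at 2.86 and TNNT1 at 2.19 being the largest. The calcium handling genes had 0 of 4 called, with SLN at 3.18 and RYR1 at 2.62, and the regulators 0 of 5. Of the regulators 3 of 5 lay above 0, with MYF6 (a myogenic transcription factor) at 3.02, ANKRD1 at 1.76 and a list median of 0.25. Energy metabolism had 4 of 13 called and a median of 2.27, with AMPD1 (muscle AMP deaminase) at 3.53 and CKMT2 (mitochondrial creatine kinase) at 2.89. The Z-disc, titin and nebulin list had 1 of 16 called and a median of 1.60. The median of all probe sets tested was 0.12.

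Among markers of other cell types, fat markers were higher in mesenchyme and the rest were not called. All 8 adipocyte genes were called higher in mesenchyme of inverted teats (median 2.43), with GPD1, an enzyme of fat synthesis, at 3.28 ± 0.56 (SE, adjusted p = 0.0162 in limma) and ADIPOQ, adiponectin, at 3.09 ± 0.91 (0.0490). The adipocyte mean was higher in mesenchyme in 5 of 5 inverted teats, by 1.45 to 3.48, including animal 963. Luminal keratins had 0 of 3 called (KRT19 at -0.58, KRT18 at -0.51), smooth muscle 0 of 7 (CNN1, calponin, at -0.56 and TAGLN, transgelin, at -0.37) and keratinocyte genes 0 of 5 (IVL at -0.51 and DSP at -0.45). The fibroblast list had 0 of 8 called (FAP at 0.52, ASPN at -0.51), the leukocyte list 0 of 4 (CD14 at 0.99, JCHAIN at 0.61), the endothelial list 0 of 8 (ERG at -0.31, CDH5 at 0.25) and the nerve list 0 of 2 (S100B at -0.50, MBP at -0.35). Fat markers and members parted in the inverted teat of animal 963, where the adipocyte mean differed by 1.45 and MYLPF by -7.64. In the other inverted teats the adipocyte mean and all 5 members were higher in mesenchyme. The part of fat in the muscle differences was not tested.

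The counts of called list genes and of all probe sets in inverted teats depended on scaling and on single animals. Quantile normalization moved the median difference of all probe sets from 0.12 to -0.01 and left 2 probe sets called in place of 2114, of which 50% and 93.19% were higher in mesenchyme. It left 0 adipocyte and 0 muscle list genes called. Without animal 1037, 1059 or 1103, 0 of 8 adipocyte genes and 0 muscle list genes were called, and 1 probe set in all. Without 963, 5 adipocyte genes and 18 of 49 muscle list genes were called. All 8 adipocyte differences stayed above 0 in each of these settings.

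In the teat comparisons the muscle lists lay on the same side as the members. The lists hold genes that ranked just after the members in the contrast that chose them, such as MYL1 and TTN. Their side is therefore not independent of that choice. In epithelium 12 of 15 tested Z-disc genes and 10 of 12 energy genes had higher values in inverted teats, with medians of 0.52 and 0.25, and MYL1 differed by 3.24 ± 2.03 (SE). In mesenchyme 2 of 16 and 1 of 13 did, with medians of -1.17 and -0.65, and 1 of 11 slow and cardiac isoforms did (median -1.02). These lists leaned on animal 963, whose Z-disc mean differed by -5.55 between inverted and normal mesenchyme, against -0.61 in 964, 1.41 in 1037, -0.07 in 1059 and 0.06 in 1103. The energy mean differed by -4.28 in 963 and by -0.65 to 1.304 in the other animals, and the slow mean by -3.76 in 963 and by -1.57 to 1.22 in the other animals. The medians of all probe sets tested were 0.0012 and 0.07. None of the muscle list genes was called in either tissue, as no probe set was. Luminal keratins went the other way, with 0 of 3 higher in epithelium (median -0.66) and 3 of 3 in mesenchyme (median 2.42), and smooth muscle genes were higher in 7 of 7 and 6 of 7 (medians 0.24 and 0.34). The keratin mean leaned on 1103 in epithelium (-3.50), while 964 and 1037 differed by 0.20 and 0.81. In mesenchyme it leaned on 1059 and 1103 (3.87 and 6.38), while 963 differed by -0.21. The part of the keratins and smooth muscle genes in the muscle values was not tested.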

How the data were processed

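Per the labels, total RNA was labelled with biotin and hybridised to 1 array per piece. The authors deposited log2 values per probe set. The log base was taken from the values. The submitters' processing notes name GCOS 1.1.1 and PLIER without a role, and no source used here states a normalization between arrays, so values were used as deposited. Of 24123 probe sets, 124 controls were left out. Symbols came from the platform table and the RefSeq gene table: 10069 probe sets had 1 symbol, 198 several and 13732 none. The number of arrays limits the precision.

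The members and the gene lists were chosen with earlier results of these data known. Comparisons were fitted with limma 3.58.1 in R 4.3.3 (lmFit, eBayes) on all probe sets that exceeded the 30th percentile of 5 or more arrays of the fit. Adjusted p-values are Benjamini-Hochberg values, and those under 0.05 were called. All 5 members passed that filter in each comparison. The tissues were fitted apart with 3 group means on 15 arrays, the tissue difference in inverted teats on 10 arrays, and the interaction on 30. These main fits had no term for the animal. The fits were tested on simulated data. ACTA1, MYH1, MYH4, KLHL40, ACTN3 and PVALB were not analysed here.

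Genes to be named were the members, the 2 tested genes per list with the largest tissue difference in inverted teats, the 6 symbols most like the members' mean in each tissue, and the slow and fast counterparts. The 5 called muscle genes and the list counts under other settings were added after their values were seen. For genes with several probe sets, the one with the highest mean was used. Alternatives were quantile normalization, no filter, low values raised to the 30th percentile, the animal as a replicate block, and leaving out each animal.

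The animal numbers in the sample descriptions pair the arrays. Deviations from the group means correlated between both teats of an animal with r of 0.15 to 0.29 in epithelium and 0.08 to 0.42 in mesenchyme, and between both tissues of an inverted teat with -0.01 to 0.37.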

Additional observations from a re-analysis of the deposited data

Results flagged for a closer look

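Of 55 groups of 5 values examined, 12 held 1 sample far from the other 4, where chance gives about 1 group in 20. The groups are not independent, because the 5 genes move together. The mesenchymal piece of the inverted teat of animal 963 stood apart for MYLPF at 3.83 (next lowest 11.98), TNNC2 at 3.55 (next 12.12) and TNNT3 at 0 (next 10.65). The mesenchymal piece of the normal teat of non-affected animal 1040 stood apart for MYLPF at 1.15 (next 11.57), TNNC2 at 3.71 (next 11.38) and TNNT3 at 0 (next 10.24). In epithelium of normal teats of affected animals, MYH2 was 10.70 in animal 963 and 2.81 in the next highest animal.

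Among the differences between inverted and normal mesenchyme of an animal, 963 stood apart for all 5 genes: -9.66 for MYLPF, -11.68 for MYH2, -12.87 for TNNT3, -9.80 for TNNC2 and -8.73 for KLHL41, where the next lowest lay between -0.997 and -0.406. Adipocyte markers did not set these pieces apart, since their mean was 10.93 in the inverted mesenchyme of 963 and 11.23 in that of 1040, within the 9.33 to 11.64 of all mesenchymal pieces. The cause of the low muscle values in these pieces was not tested.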

How the results depend on the processing

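The 5 members' differences gave 482 alternative values on the same side of 0 and of the threshold, 57 with the other sign and 3 newly past the threshold, the latter all without animal 963. Leaving out each animal gave 0 to 3 members called for tissue in inverted teats. With the animal as a random replicate block 0 of 5 were called (adjusted p = 0.257 for MYLPF in limma), and the replicate block changed no call of a member.

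Leave-one-out ranges crossed 0 in 4 comparisons. For inverted against normal mesenchyme they were -2.47 to 0.34 (MYLPF), -3.40 to 0.38 (TNNT3), -2.41 to 0.52 (TNNC2), -2.86 to 0.84 (MYH2) and -2.14 to 0.59 (KLHL41). By status in epithelium they were -2.001 to 1.32, -0.53 to 1.504, -1.37 to 1.47, -2.07 to 1.28 and -1.15 to 0.36 in that order, and in mesenchyme -0.13 to 2.94, -0.11 to 3.26, -0.25 to 2.17, -1.32 to 2.05 and -0.71 to 1.53. For inverted mesenchyme against non-affected animals they were -1.78 to 2.33, -2.38 to 2.38, -1.79 to 1.85, -2.98 to 0.78 and -1.98 to 0.86.

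Raising low values to the 30th percentile turned the status differences in epithelium of TNNT3 (-0.13), TNNC2 (-0.17) and KLHL41 (0.18), and against non-affected animals MYH2 in epithelium (-0.51) and TNNT3 in mesenchyme (0.031). Quantile normalization turned TNNC2 there (-0.0068). The cause was not tested. TNNT3 and KLHL41 failed the filter in epithelium without animal 963, and no other probe set of a member exists here to compare.

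For the tissue difference in inverted teats, in alternatives chosen after seeing the data, 2114 probe sets became 2 with quantile normalization, 1090 with no filter, 3684 with a random replicate block and 1 to 1490 with an animal left out. The 8 adipocyte genes became 0, 4 (no filter) and 0 to 8. The 5 muscle list genes became 0, 2 and 0 to 18. Fewer arrays and, with no filter, more probe sets enter those tests. Values near background have no order, which limits differences of these genes in epithelium.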
